A study of Mus musculus with 2 samples.

Results

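Transcript levels of 40 genes of ribosome biogenesis, counting the growth regulator Myc, were compared between T helper 2 (Th2) cell cultures from Ecm1 knockout (KO) mice and from wild-type (WT) mice. The genes were chosen by symbol from a list of 41 and make up 40 of the 18193 genes that the array names singly. The listed gene not analysed here is Mrto4, whose probe set also carries pseudogene symbols. Ecm1 encodes an extracellular matrix glycoprotein that cells secrete. Per the labels, both groups were female C57BL/6 mice, kept until 6 weeks of age, that differed in the Ecm1 deletion, and splenic CD4 cells, called naive in the design text, were isolated with an anti-CD4 antibody. Cells of both groups were cultured for 4 days with anti-CD3 (3 µg/ml, bound to the plate), anti-CD28 (2 µg/ml), IL-4 and antibodies that block IFN-γ and IL-12 (10 µg/ml each). RNA of each group went onto 1 Affymetrix array. Neither how many mice were pooled nor how the Ecm1 allele was made could be read from the labels.

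Ribosomes are assembled in the nucleolus, where RNA polymerase I transcribes the ribosomal RNA precursor, small nucleolar ribonucleoproteins (snoRNPs) guide its modification, and assembly factors cut and fold it into the small and the large subunit. MYC, a transcription factor that binds DNA as a dimer with MAX at the E-box sequence, is known to raise the output of this pathway. Activated T cells are known to need MYC and to enlarge their nucleoli before they divide.

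With 1 array a group there were no replicates and no test between groups was possible, so each value describes these 2 arrays, and fewer cells of a type and less RNA per cell cannot be told apart. Values are linear signal intensities. A difference is the log2 signal of the KO array minus that of the WT array, centred on the median of all probe sets, and a gene was taken as measured on an array when its signal reached that array's median (65.5 for KO, 69.2 for WT). All 40 genes were measured on both arrays. The only internal error is the disagreement between the brightest pair of probe sets of a gene, whose SD per probe set was 0.36 on the log2 scale over 4657 genes and 0.28 over the 28 ribosome biogenesis genes that have such a pair. That SD leaves out animal, culture and array error. The Ecm1 signal was 19.3 on the KO array and 29114.7 on the WT array. Some values went against the labels. The Y-linked gene Eif2s3y read 2214.4 on the KO array and 25.0 on the WT array, although the mice are labelled female, while Xist, transcribed from the inactive X of females, read 8715.3 on the KO array and 19739.9 on the WT array. The sample descriptions name liver, whereas the hepatocyte gene Alb was below the floor on both arrays (24.1 for KO, 4.8 for WT).

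Most of the ribosome biogenesis genes had higher signals on the KO array, by modest amounts. Of the 40 genes, 33 had a difference above 0, against 53.1% of all 10144 genes measured on both arrays. At least 1.5-fold higher were 16 of the 40 (background 18.3%) and at least 2-fold higher were 5 (background 7.15%): Gnl3, Nolc1, Rrp12, Wdr75 and Grwd1. None was 1.5-fold lower (background 13.6%) or 2-fold lower (background 4.45%). The median difference was 0.40, with a range from -0.58 (Wdr12) to 1.39 (Gnl3), against a median of 0.04 over all genes. Myc itself was not among the higher genes.

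**Figure D1:**
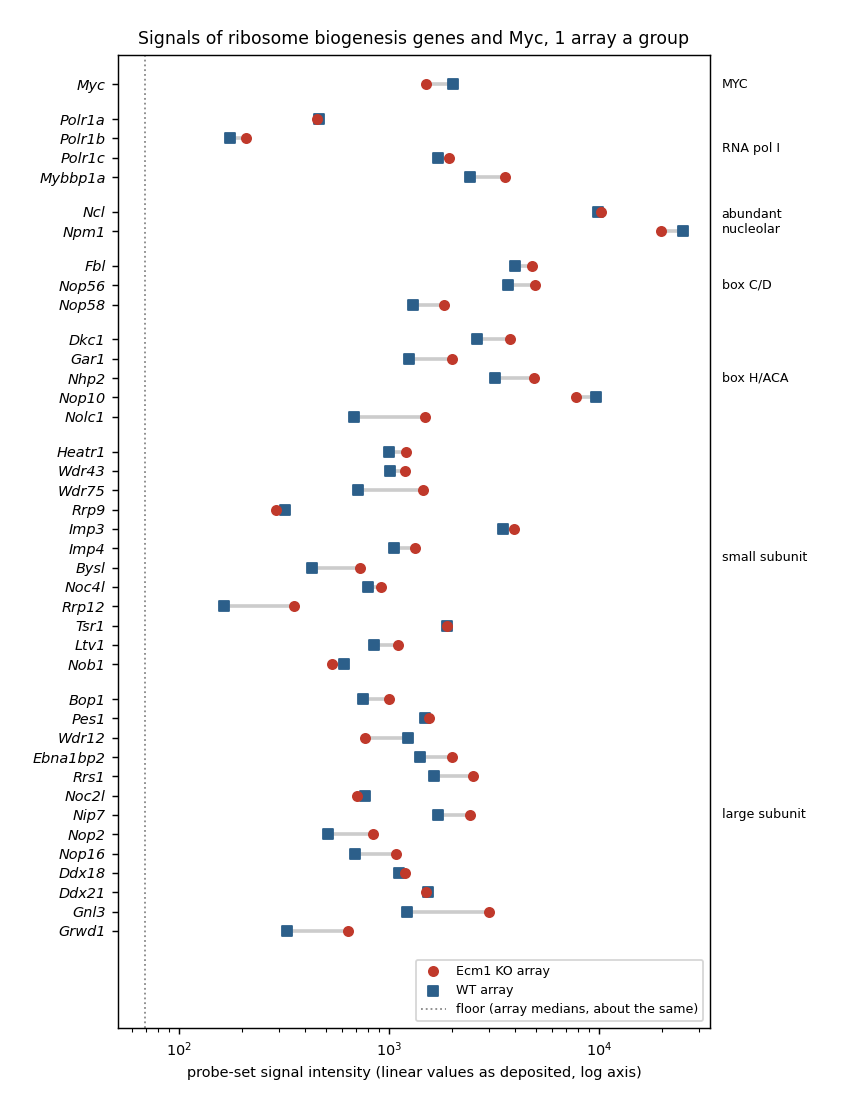
Signal intensity of each of the 40 genes (rows, grouped by role) on the Ecm1 KO array (red circles) and the WT array (blue squares), on a log axis, 1 array a group with no error bars. The KO point lies to the right of the WT point for most genes, with the widest gaps at Gnl3 (2991.3 against 1221.9), Nolc1 and Rrp12, and to the left for Myc, Npm1, Nop10 and Wdr12 and, by less, for Nob1, Rrp9, Noc2l, Polr1a, Ddx21 and Tsr1.

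Promoter windows of these genes were examined because MYC binds the E-box, CACGTG. RefSeq windows (GRCm38.p6) of 250 bases before and 50 bases after a gene's start were found for 35 of the 41 listed genes, 38 windows in all, and the others, Myc among them, had none. In the 250 bases before the start, CACGTG occurred in 2 of the 38 windows (5.26%), against 8.61% of the 10627 windows of genes measured on both arrays and 6.02% of all 32851 windows. In the 50 bases after the start it occurred in 6 of 38 (15.8%), against 1.54% of the windows of measured genes and 1.08% of all windows. Over the whole window the count was 8 of 38 (21.1%), against 10.3% and 7.15%. The split at the start site was made after the counts had been seen, and the shares are a description with no test. CACGTG reads the same on both strands. The 8 stretches are shown here because they hold the letters of the E-box, and binding of MYC or MAX to them was not measured. Each is written 5′ to 3′ on the gene's strand with the E-box in capitals.
Nop2, chr6:125131811-125131840, plus strand: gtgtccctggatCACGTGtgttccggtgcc
Imp4, chr1:34439696-34439725, plus strand: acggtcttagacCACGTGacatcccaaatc
Pes1, chr11:3963965-3963994, plus strand: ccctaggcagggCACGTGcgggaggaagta
Wdr43, chr17:71616220-71616249, plus strand: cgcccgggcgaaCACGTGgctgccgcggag
Tsr1, chr11:74898092-74898121, plus strand: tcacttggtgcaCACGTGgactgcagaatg
Ltv1, chr10:13193092-13193121, minus strand: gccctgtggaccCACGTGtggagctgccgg
Grwd1, chr7:45830740-45830767, minus strand: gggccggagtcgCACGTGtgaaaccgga
Mybbp1a, chr11:72441355-72441376, plus strand: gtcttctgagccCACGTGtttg
The stretches of Nop2 and Imp4 lie before the start and the other 6 after it. All 8 genes had differences above 0 (median 0.46, from 0.10 for Tsr1 to 1.08 for Grwd1, background 53.1%). So had 21 of the 26 measured genes whose window held no CACGTG (median 0.37). Under no centring the difference of Tsr1 was -0.0024, and with the second-brightest probe sets those of Imp4 and Pes1 were -0.03 and -0.11.

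The promoter of Nolc1, 1 of the 5 genes past 2-fold, is given beside that of Nop2 as an example of a window without and with CACGTG. Capitals mark the E-box, its variant CACGCG, which Nolc1 carries on the opposite strand, and CCGGAAG, the core letters of ETS-family sites. Each was searched on both strands, and none of the marked stretches overlap.
Nop2, chr6:125131633-125131882, plus strand: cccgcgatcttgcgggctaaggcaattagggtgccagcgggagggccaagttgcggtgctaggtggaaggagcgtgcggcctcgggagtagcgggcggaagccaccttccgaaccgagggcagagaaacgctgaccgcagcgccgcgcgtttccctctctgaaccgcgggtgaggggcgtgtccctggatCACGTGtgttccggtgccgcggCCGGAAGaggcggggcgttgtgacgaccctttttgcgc
Nolc1, chr19:46075597-46075846, plus strand: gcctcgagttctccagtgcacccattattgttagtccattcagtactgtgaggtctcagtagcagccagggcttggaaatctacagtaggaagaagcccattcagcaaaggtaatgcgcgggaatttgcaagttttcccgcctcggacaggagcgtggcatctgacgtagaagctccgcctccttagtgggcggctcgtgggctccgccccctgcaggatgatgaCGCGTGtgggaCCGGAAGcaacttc
In the 250 bases before the start, CACGCG occurred in 6 of the 38 windows (15.8%), against 14.5% of the windows of measured genes and 7.62% of all windows. In the 50 bases after the start it occurred in 6 (15.8%, against 3.45% and 1.83%), and over the whole window in 12 (31.6%, against 17.5% and 9.27%). CCGGAAG occurred in 9 windows before the start (23.7%, against 14.6% and 6.91%), 3 after it (7.89%, against 4.86% and 2.12%) and 13 in all (34.2%, against 19.0% and 8.86%). ATGGCG, the core letters of YY1 sites, occurred in 10 before the start (26.3%, against 9.16% and 5.73%), 5 after it (13.2%, against 7.16% and 3.36%) and 15 in all (39.5%, against 15.8% and 8.93%). These counts describe letters in a window and not the binding of a factor. The other genes past 2-fold differed from Nolc1 in the 250 bases before the start. Gnl3 held none of the searched motifs there, Wdr75 only ATGGCG and Grwd1 only CCGGAAG, and Rrp12 had no window.

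Myc and most measured genes of the MYC network lay below 0, unlike most of the ribosome biogenesis genes, but not under every centring. Myc, with 1 probe set above the floor, had a signal of 1510.1 on the KO array and 2031.0 on the WT array. The difference of -0.32 lies between the SD over the ribosome biogenesis genes (0.28) and that over all genes (0.36), and it is 0.00 when the arrays are centred on their poly-A control transcripts. Of 14 measured genes of the MYC network, 9 lay below 0 and 5 above (35.7%, background 53.1%), with a median of -0.26. That median was 0.06 under centring on the poly-A controls. The dimer partner Max was at -0.19. Mxd1, which encodes a MAX partner that opposes MYC, read 292.0 against 617.3 (-0.98), and Mnt, another such partner, 1081.1 against 1870.1 (-0.69). Mxd3, of the same family, went the other way with 1593.1 against 698.8 (1.29). It was the 1 network gene at least 2-fold higher (7.14%, background 7.15%) and the 1 at least 1.5-fold higher (7.14%, background 18.3%). Of the 14 genes, 4 were at least 1.5-fold lower (background 13.6%) and none was 2-fold lower (background 4.45%). Mlxip was at -0.75, Zbtb17, whose product binds MYC at repressed promoters, at -0.61, Mxi1 at -0.43, Bptf at -0.35 and Trrap, a MYC cofactor, at -0.34. Mga (-0.04), Mxd4 (0.03), Usp28 (0.08), the MYC ubiquitin ligase gene Fbxw7 (0.10) and Mlx (0.38) made up the rest. Mycn was measured on the WT array only, at the floor (21.4 against 69.2), and Mycl on neither.

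Established MYC targets outside the nucleolus were mostly higher on the KO array, with 21 of 25 above 0 (84.0%, background 53.1%) and a median of 0.51. At least 2-fold higher were 6 (24.0%, background 7.15%) and none was 2-fold lower (background 4.45%). The polyamine enzyme genes Odc1 and Srm read 8649.8 against 2308.1 (2.01) and 4216.6 against 1145.9 (1.98). Shmt2, of mitochondrial one-carbon metabolism, was at 1.94. The lowest were Nampt, of NAD synthesis, at -0.66, Ldha at -0.16 and Eif4e at -0.10.

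RNA polymerase I genes among the 40 lay slightly above 0. Polr1a and Polr1b, which encode the catalytic core, read 454.0 against 462.9 (0.07) and 208.8 against 174.8 (0.36). Polr1c, whose product is shared with RNA polymerase III, read 1942.5 against 1720.9 (0.28). Mybbp1a, a nucleolar MYB-binding protein gene, read 3558.0 against 2431.8, which was 1.57-fold higher after centring (0.65), and its other probe set was at 0.83. The Polr1a signals nearly coincide, its dimmer probe sets lay at -0.01 and -0.24, and without centring its difference was -0.03. Among 10 further polymerase I genes none was past 1.5-fold (background 18.3% higher, 13.6% lower) and 7 lay below 0. The share above 0 was 30.0% (background 53.1%). Their median of -0.07 was 0.26 under poly-A centring and 0.00 with averaged probe sets. Ubtf, the upstream binding factor of ribosomal DNA, was lowest at -0.53, followed by the promoter-selectivity subunit genes Taf1c (-0.48) and Taf1b (-0.31). The initiation factor Rrn3 was highest at 0.24, with Taf1a at 0.05 and Ttf1 at 0.03.

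The abundant nucleolar proteins nucleolin and nucleophosmin differed little. Ncl read 10274.4 on the KO array and 9934.9 on the WT array (0.15), with a second probe set at -0.08, and its difference was below 0 after quantile normalization and with averaged probe sets. Npm1, which encodes a histone and ribosome chaperone, read 19840.5 and 25167.2 (-0.24), with its other probe set at -0.23 and a difference of 0.09 under poly-A centring. Npm1 has many processed pseudogenes, so its probe sets may share signal.

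Among the box C/D and box H/ACA genes, 7 of 8 lay above 0 (background 53.1%) and Nop10 below. Box C/D particles methylate ribosomal RNA. Their methyltransferase gene Fbl read 4818.3 against 3984.2 (0.38, and 0.64 in its other probe set). The scaffold genes Nop56 and Nop58 read 4951.6 against 3692.7 (0.53) and 1839.9 against 1306.2 (0.60). Box H/ACA particles convert uridine to pseudouridine. Their pseudouridine synthase gene Dkc1 read 3797.2 against 2630.3 (0.63, with 0.58 and 0.64 in other probe sets). The core genes Gar1 and Nhp2 read 2007.7 against 1242.1 (0.80) and 4930.4 against 3191.8 (0.73, and 1.20 in the other Nhp2 probe set). Nop10, the smallest core protein of the same particle, read 7829.5 against 9753.5 (-0.21), with -0.10 in its other probe set and 0.11 under poly-A centring. Nolc1, a nucleolar chaperone of these particles, read 1481.5 against 683.8, which was 2.33-fold higher after centring (1.22). Its dimmer probe sets were at 1.11 and 0.23. Of 15 measured genes of snoRNP assembly and of the RNA exosome, 14 lay above 0 (93.3%, background 53.1%). Past 2-fold was 1 (6.67%, background 7.15%), Naf1, an assembly factor of H/ACA particles, at 1.12. Ruvbl1 and Ruvbl2, the helicase pair that assembles box C/D particles, were both at 0.87, and Exosc8 (-0.43), Nufip1 (0.04) and Exosc9 (0.10) were lowest.

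Small-subunit factors included 2 of the genes past 2-fold (16.7%, background 7.15%), and 10 of 12 lay above 0 (83.3%, background 53.1%, median 0.36). Rrp12, needed for export of the small-subunit precursor in yeast, read 353.5 against 164.3, which was 2.31-fold higher after centring (1.21, 1 probe set). Wdr75, a part of the early processome that couples transcription to processing, read 1451.2 against 712.6 (1.13), but its dimmer probe set, at 120.5 and 121.9, had a difference of 0.09. Its processome partners Heatr1 and Wdr43 read 1209.2 against 998.7 (0.38) and 1191.6 against 1010.0 (0.34), with 0.04 and 0.03 in their second probe sets. Bysl, of late nuclear maturation, read 727.6 against 432.5 (0.85, and 1.42 in its other probe set).

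Other small-subunit genes stayed within 1.5-fold. Ltv1 (1110.3 against 850.6, 0.49), Imp4 (1332.6 against 1061.6, 0.43), Noc4l (915.4 against 794.4, 0.31) and Imp3 (3957.1 against 3499.3, 0.28) were on the higher side. The signals of Tsr1 (1895.4 against 1898.5, 0.10), Rrp9, a U3 snoRNP protein gene (290.0 against 320.5, -0.04), and Nob1, the nuclease that makes the mature end of the small-subunit RNA (539.3 against 613.6, -0.08), gave centred differences near 0. Rrp9 and Nob1 were above 0 under poly-A centring, and Rrp9 also after quantile and loess normalization. Among 39 further measured small-subunit factors, 34 lay above 0 (87.2%, background 53.1%). At least 1.5-fold higher were 12 (30.8%, background 18.3%) and none was 1.5-fold lower (background 13.6%), with a median of 0.35. At least 2-fold higher were 2 (5.13%, background 7.15%). Pno1 (1.14), Utp3 (1.05) and Utp6 (0.89) were highest, and Rrp7a (-0.20), Tsr3 (-0.10) and Nol11 (-0.07) lowest.

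Of 13 large-subunit factors 11 lay above 0 (84.6%, background 53.1%) and 7 were at least 1.5-fold higher (53.8%, background 18.3%), with a median of 0.61. They included the highest and the lowest of the 40 genes. Gnl3, which encodes the nucleolar GTPase nucleostemin, read 2991.3 against 1221.9, which was 2.63-fold higher after centring (1.39, 1 probe set). Grwd1, a histone-binding assembly factor gene, read 639.6 against 326.0 (1.08), with 0.84 and 1.37 in its other probe sets. Nop2, a ribosomal RNA methyltransferase gene, read 838.8 against 512.7 (0.81), Nop16 1088.2 against 689.4 (0.76) and Rrs1 2508.0 against 1646.2 (0.71, and 0.77 in its other probe set). Ebna1bp2 read 2005.1 against 1401.2 (0.62) and Nip7 2432.4 against 1711.9 (0.61), but the dimmer probe sets of these genes were at 0.22 and -0.01.

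The subunits of the PeBoW complex, which processes the large-subunit RNA as a unit of PES1, BOP1 and WDR12, did not share a direction. Bop1 read 1002.4 against 757.7 (0.51, and 0.49 in its other probe set). Pes1 read 1552.9 against 1495.4 (0.16, and -0.11). Wdr12 read 772.2 against 1239.0, which was 1.49-fold lower after centring (-0.58), and its second probe set, at 153.4 against 329.8, was at -1.001. Wdr12 was the 1 gene of the 40 that lay below 0 under every alternative setting, from -1.001 to -0.25.

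The helicase genes Ddx18 and Ddx21 read 1189.4 against 1120.9 (0.19) and 1509.3 against 1541.4 (0.07), but the second probe set of Ddx21, with 1129.1 against 577.7, was at 1.07. Noc2l read 706.7 against 773.0 (-0.03, and -0.47 in its other probe set). The dimmest Ddx18 probe set, with 147.7 against 214.4, was at -0.43. The difference of Ddx18 was -0.04 with averaged probe sets, that of Ddx21 was -0.03 without centring, and that of Noc2l was 0.30 under poly-A centring. Among 47 further measured large-subunit factors, 34 lay above 0 (background 53.1%), with a median of 0.21. At least 1.5-fold higher were 8 (background 18.3%), a share no larger than the background. Zfp622 (-0.60) was the 1 gene at least 1.5-fold lower (background 13.6%). None was 2-fold higher (background 7.15%) or 2-fold lower (background 4.45%). Wdr18 (0.93), Brix1 (0.87) and Wdr74 (0.75) were highest, and Nop53 (-0.57) and Ddx10 (-0.32) followed Zfp622 at the low end.

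**Figure D2:**
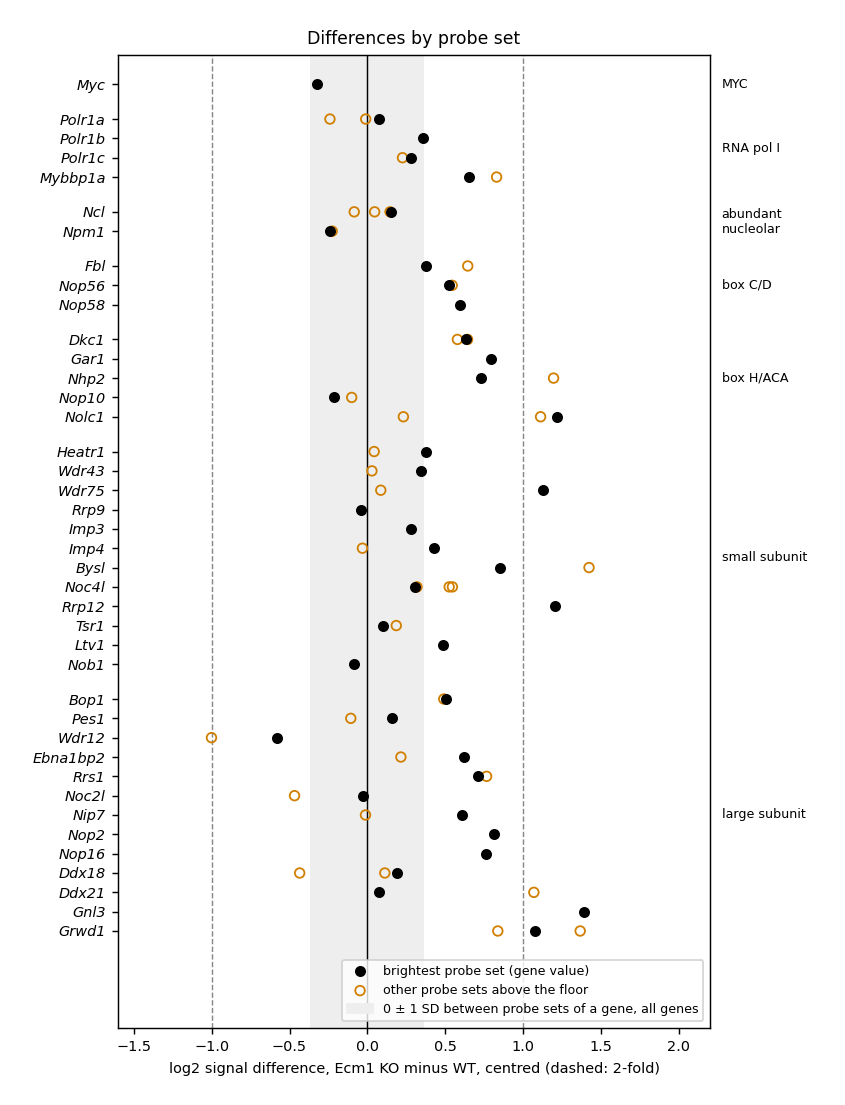
Centred log2 difference, Ecm1 KO minus WT, of each gene's brightest probe set (black, the value in the text) and of its other probe sets above the floor (open orange circles). The grey band is 0 ± 0.36, the SD between probe sets of a gene, and the dashed lines mark 2-fold. Most black points lie right of 0, while open circles of Wdr75, Ddx21, Nolc1, Ddx18 and Nip7 lie far from the black ones.

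Probe sets of the same gene mostly went the same way. Of the 28 genes with a second measured probe set, 23 had the same sign in both, against 74.0% of 4657 genes over the arrays. The 5 with opposite signs were Polr1a, Ncl, Pes1, Imp4 and Nip7, and the widest gap was that of Wdr75 (1.04). Only the 2 brightest probe sets were compared, so the dimmest of Ddx18, at -0.43 against 0.19 for the brightest, is not counted. For 9 genes, Grwd1 among them, the brightest probe set carries the ending _x_at or _s_at, which marks a possible match to several transcripts.

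The 25 measured cytosolic ribosomal protein genes lay between -0.13 and 0.26 with a median of 0.00. That median was -0.10 without centring and 0.33 under poly-A centring. None of the 25 was past 1.5-fold (background 18.3% higher, 13.6% lower). For 24 of the 25 the signals were very bright, 26712.7 to 41844.3 on the KO array and 29195.6 to 43733.7 on the WT array, so differences between the arrays may be compressed, which was not tested. The exception, Rps6, read 2680.1 against 2408.7 and had the highest difference (0.26). DNA replication genes were all above 0, with 13 of 26 at least 2-fold higher (median 1.01). Their lowest value was 0.54 (Pola2), above the median of the 40 ribosome biogenesis genes, followed by Mcm4 (0.62) and Mcm3 (0.63), and the highest were Orc1 (391.4 against 94.5, 2.15), Cdc45 (2.04) and Cdc6 (2.00). No test of the difference between these lists was possible.

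Marker genes of several cell types differed between the same arrays. As background for the counts that follow, 53.1% of all measured genes lay above 0. At least 2-fold higher were 7.15% of them and at least 2-fold lower 4.45%. All 10 measured T cell markers were lower on the KO array, 4 of them at least 2-fold (median -0.88), with Cd4 at 932.2 against 3022.3 (-1.59), Cd5 at -1.41, Cd247 at -1.29, Cd3g at -0.72, Cd2 at -0.71, Cd3d at -0.52 and a summed signal of the list of 55638.1 against 105196.7. All 10 measured B cell markers were above 0, 5 of them 2-fold or more (median 1.02, summed signal 36947.0 against 18343.6), with Pax5 below the floor on both arrays. Of 9 measured plasma cell markers 7 were at least 2-fold higher (median 1.91, summed signal 114770.1 against 47529.6), and Tnfrsf17 was below the floor on the WT array. Macrophage markers had 4 of 7 measured genes at least 2-fold higher (summed signal 6645.9 against 1314.1), with Itgam, Cd163 and Marco below the floor on both arrays. Mrc1 (75.4 against 2.3) and Fcgr1 (73.5 against 68.8) were below the floor on the WT array only. CD8 T and natural killer markers were lower in 6 of 7 genes (5 past 2-fold, Eomes above 0 at 0.35, summed signal 10351.6 against 32892.2). Of 6 measured Th2 markers 4 lay below 0: Maf (6926.9 against 12320.3, -0.73), Ccr4 (-0.38), Il4 (-0.31) and Gata3 (-0.21). Ccr8 was at 0.56 and Il13 at 1.89, with a WT signal of Il13 next to the floor (240.6 against 69.6). Erythroid markers reached the floor in 1 of 4 genes. The part of these shifts in the ribosome biogenesis values was not tested.

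**Figure D3:**
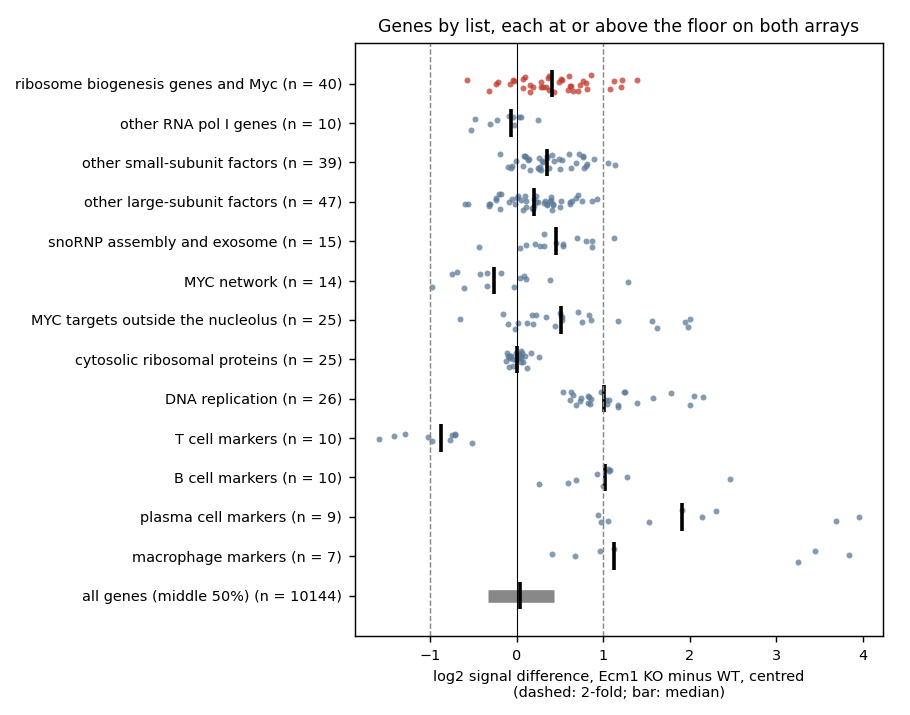
Centred log2 difference, Ecm1 KO minus WT, of every measured gene of each list (points, spread vertically for legibility) with the list's median (black bar), and the middle 50% of all 10144 genes (grey). The ribosome biogenesis genes (red, median 0.40) sit between the cytosolic ribosomal proteins (0.00) and the DNA replication genes (1.01), and the T cell markers lie wholly below 0.

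The median of the 40 genes stayed above that of all genes under each of the 9 alternative settings, between 0.28 and 0.73. No centring and poly-A centring shift every gene by the same amount. They could therefore not change the gap between these medians. The number past 2-fold ran from 4 to 6, not always of the same genes, except under poly-A centring, which gave 11. Gnl3 was at least 2-fold higher under all 9 and Rrp12 under the 8 that gave it a value, but both have 1 probe set, which the probe-set settings cannot move. Nolc1 was past 2-fold in 8 of 9 (0.85 with averaged probe sets). Wdr75 was past it in 7 of 9 (0.61 with averaged and 0.09 with second-brightest probe sets). Grwd1 was past it in 6 of 9 (0.97 without centring, 0.84 with second-brightest probe sets and without _x_at and _s_at). The number at least 1.5-fold higher was 11 without centring and after quantile or loess normalization. It was 27 under poly-A centring, which also raised the median of all genes to 0.37. Shares of all genes past a fold were counted under the reported setting only, so the counts under the alternatives have no background beside them.

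**Figure D4:**
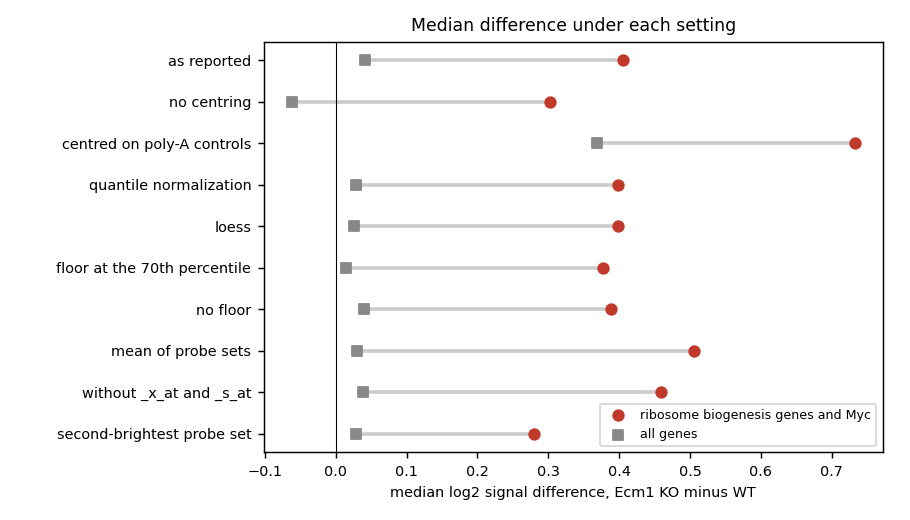
Median log2 difference, Ecm1 KO minus WT, of the ribosome biogenesis genes and Myc (red circles) and of all genes (grey squares) as reported and under each of the 9 alternatives. The red point lies right of the grey one in every row, and centring on the poly-A controls moves both up (0.73 and 0.37). The gap in the rows for no centring and poly-A centring is fixed, since both shift all genes alike.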

How the data were processed

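The authors hybridised biotinylated cRNA, made from 3 µg of total RNA per the labels' protocols, and deposited a linear signal intensity for each of 45101 probe sets on each array. The summarisation software was not given in the sources used here. Trimmed means were 500.0 on both arrays, as a common scaling gives. Platform annotation named 34945 probe sets with 1 symbol, and 932 with several were not used. The log2 difference of the deposited intensities, KO minus WT, was centred on its median (-0.10) over 20834 probe sets measured on both arrays. Each gene was read from the probe set with the highest mean log2 signal. The 9 alternatives changed the centring, the normalization, the floor or the probe-set summary (Python 3.11.15, statsmodels 0.14.6 for loess with span 0.3). The procedure was tested on simulated data. The rule for naming genes of other lists was the 3 highest and 3 lowest of each and every measured MYC network gene; of the B, plasma, macrophage, CD8 and ribosomal protein lists fewer are named. Pax5, Tnfrsf17, Itgam, Cd163, Marco, Mrc1, Fcgr1 and the label checks fall outside this rule and were chosen after values were seen. So do the 6 promoters with CACGTG after the start and those of Nolc1, Gnl3 and Wdr75. The genes and lists were chosen with earlier results of these data known, and the motifs other than CACGTG after values were seen. Promoter sequences are from RefSeq (GRCm38.p6), and the files name no build. The number of arrays limits the precision.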

Additional observations from a re-analysis of the deposited data

How the results depend on the processing

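No paired analysis was possible because KO and WT were read on 1 array each. Centring on the 22 poly-A control probe sets, 21 of them lower on the KO array (median -0.43 before centring), moved the median of all genes by 0.33 and that of the 40 genes to 0.73, with 27 genes at least 1.5-fold and 11 at least 2-fold higher. How much of the rise in these counts is the shift of all genes was not counted. Poly-A centring also turned the medians of the MYC network (0.064) and of the Th2 markers (0.063) above 0. Without centring, which moved all genes by -0.10, the median of the 40 was 0.30. Averaged probe sets gave 0.50 and second-brightest probe sets 0.28. The number of genes at least 1.5-fold lower was 1, Wdr12, without centring, with the floor at the 70th percentile, with no floor and with second-brightest probe sets, and under the last it was also the 1 gene at least 2-fold lower. With second-brightest probe sets Nip7 turned to -0.012. Against 16 genes at least 1.5-fold higher as reported, the higher floor and the second-brightest probe sets gave 13, and against 33 above 0 the second-brightest gave 27. The causes were not tested. No value remained for Rrp12 and Polr1b with the higher floor, for Gar1 and Tsr1 without _x_at and _s_at probe sets, and for Nop16 with second-brightest probe sets.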
